A study of Homo sapiens with 6 samples.

Results

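The cell division machinery described here comprised 55 genes for mitotic kinases, cyclins, checkpoint proteins, kinesins, spindle proteins and kinetochore proteins. These genes were listed by name, with earlier results of these data known. They were followed on 6 one-colour Affymetrix arrays of MDA-MB-231, an established human triple-negative breast cancer line. The 3 samples of one group stably expressed an shRNA, a hairpin RNA that lowers a chosen message, directed at MYOSIN10 (current symbol MYO10), and the 3 of the other group stably expressed a scramble shRNA. Both groups grew in L-15 medium with serum, and the labels used here do not say whether a line was 1 clone or a pool. Each gene was read through its brightest probe set, the set of array probes that measures 1 part of a transcript. All 55 members had such a probe set and all 55 passed the filter on low signals, out of 14174 genes tested.

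Entry into mitosis is driven by CDK1 bound to cyclins A and B. The kinases of the Aurora and Polo families build the spindle and attach chromosomes, the spindle checkpoint delays anaphase until every kinetochore is attached, and kinesins with their partners slide microtubules and organise cytokinesis. Most of these genes are transcribed in a wave that peaks in G2 and mitosis, so in a growing culture their message levels follow the share of dividing cells as well as the transcripts per cell. MYO10, a motor protein best known from the tips of filopodia, also links the mitotic spindle to the cell cortex and to its retraction fibres, and thereby takes part in spindle positioning.

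The markers of the line were present. VIM, CD44, CAV1, AXL, KRT18 and MSN had log2 signals between 13.09 and 14.90 on every array, and PGR, CDH1 and FOXA1, low in this line, had no probe set above the filter. Of 10 markers of other cell types (immune, endothelial, liver, muscle and fibroblast), 5 passed the filter, at log2 signals up to 8.23. ESR1, EPCAM and ERBB3, also low in this line, passed the filter at log2 signals up to 8.90. MYO10 had log2 signals of 10.70, 11.39 and 10.64 with MYOSIN10 shRNA, against 11.57, 11.96 and 11.86 with scramble shRNA, so the groups did not overlap, and array 2 was the highest of the 3 in each group. Its mean with MYOSIN10 shRNA was 54.2% of that with scramble shRNA (log2 fold change -0.88 ± 0.18 SE, limma, Benjamini-Hochberg adjusted p = 0.0303), a call that was lost when MYOSIN10 shRNA array 1 or 3 or scramble array 1 or 3 was left out (limma adjusted p between 0.0643 and 0.143). It held in 12 of 21 alternatives, with a highest limma adjusted p of 0.243 without the variance trend. Of its other 4 probe sets, 3 were lower with MYOSIN10 shRNA (-0.58 to -0.84) and 1 was higher (0.31).

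With MYOSIN10 shRNA, 1 of the 55 mitotic genes passed the test, a share near that of all genes. Most of the others were measured to within narrow bounds. AURKB, the kinase of the chromosomal passenger complex, rose 1.57-fold, 0 members fell, and 54 did not pass the test. That is 1 of 55, or 1.82%, against 1.62% of all 14174 genes (limma over all genes, Benjamini-Hochberg adjusted p under 0.05, the threshold for a call throughout). The AURKB call held in 13 of 21 alternatives. In the higher direction alone 1.16% of all genes passed and in the lower direction 0.459%. The members' median log2 fold change was 0.05, against 0.01 over all genes, and 38 members were above 0 and 17 below, where 51.8% of all genes were above 0. That median was -0.0015 without scramble array 1 and 0.0072 without MYOSIN10 shRNA array 2. Each fold change sets MYOSIN10 shRNA over scramble shRNA on the log2(signal + 16) scale, which understates changes of dim probe sets. In bulk RNA, a different share of cells in mitosis and a different amount of transcript per cell cannot be told apart.

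The standard error of a member's log2 fold change ran from 0.06 to 0.20, with a median of 0.09 against 0.15 over all genes. For 53 of the 55 members the whole 95% interval of the difference lay inside a 1.5-fold change in either direction, which held for 56% of all genes. The 2 exceptions were AURKB and CENPA, the histone variant that marks centromeres, whose interval ran from -0.17 to 0.69. These intervals rest on the fit with a variance trend, which lets the variance follow the signal, and their count without it was not taken. Mean log2 signals ran from 7.89 to 14.02 over the members and from 4.98 to 15.44 over all genes. The shares inside 1.5-fold were not compared at equal signal. The 53 members include PLK1 and INCENP, whose probe sets may detect little transcript, so their intervals need not bound their messages. Without the trend the standard error was 0.17 against 0.13 for AURKB, 0.13 against 0.11 for BIRC5 and 0.092 against 0.081 for CDC25B. For KIF15 it was 0.099 against 0.10. At an unadjusted p under 0.05 stood 6 members, 10.9%, against 14.9% of all genes. The 3 arrays of one group lay wholly to one side of the other 3 for 9 members, against 19.8% of all genes. All MYOSIN10 shRNA arrays were above all scramble arrays for 7 members (CCNB2, CDC25B, AURKB, BIRC5, KIF4A, KIF15 and PRC1), against 11.2% of all genes. All were below for 2 members (BUB3 and CENPE), against 8.56% of all genes.

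**Figure D1:**
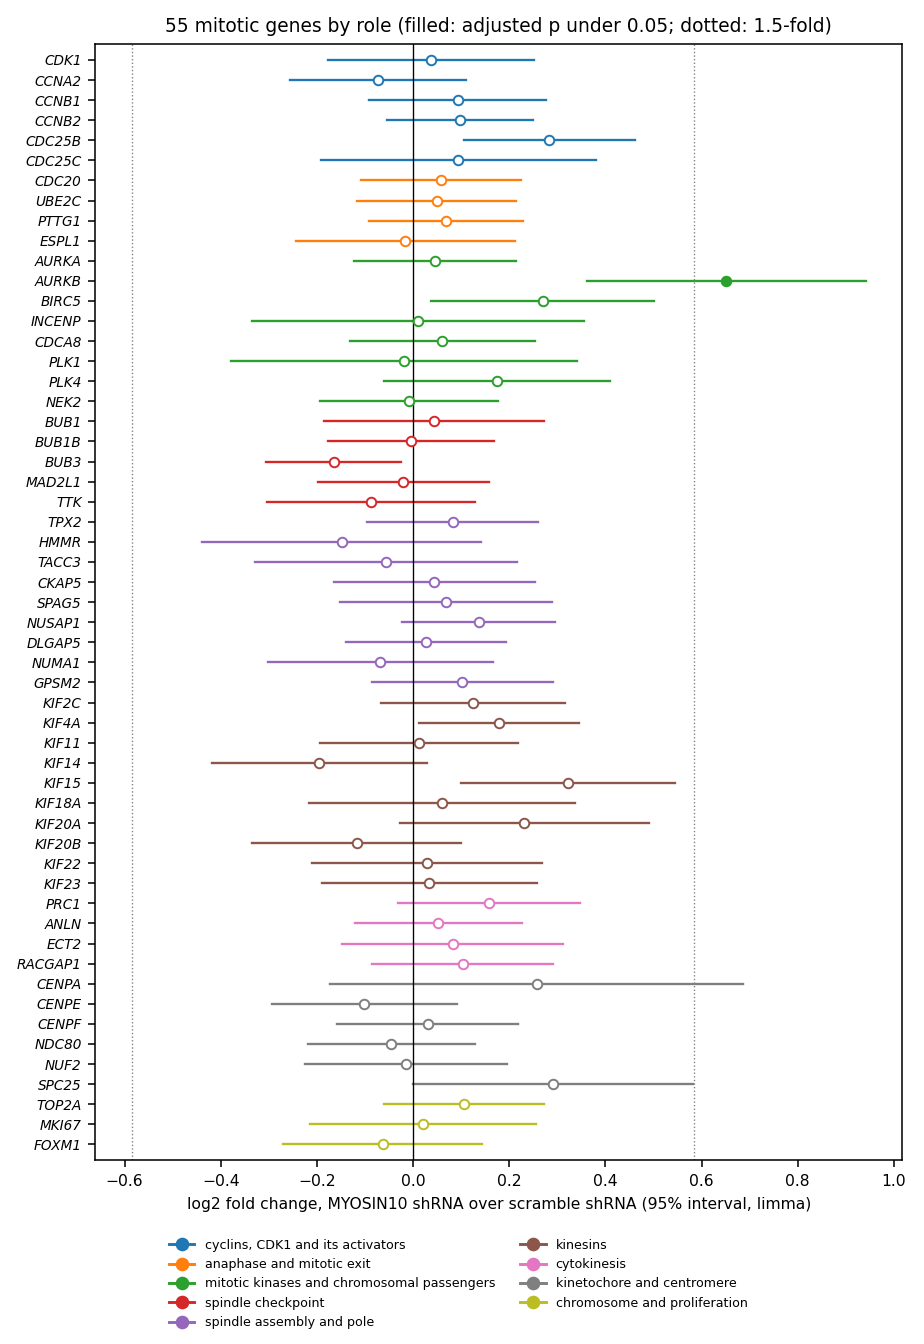
Log2 fold change of each of the 55 genes, MYOSIN10 shRNA over scramble shRNA (points), with its 95% interval from limma (lines), coloured by role. AURKB at 0.65 is the filled point that passed an adjusted p of 0.05, and 53 intervals lie between the dotted lines at 1.5-fold.

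Among the kinases and chromosomal passengers, AURKB had log2 signals of 11.28, 11.44 and 11.40 with MYOSIN10 shRNA, against 10.50, 11.07 and 10.60 with scramble shRNA. The 3 MYOSIN10 shRNA arrays lay close together and above every scramble array, while scramble array 2 was 0.52 above the mean of the other 2 scramble arrays. The means were 11.37 ± 0.085 with MYOSIN10 shRNA and 10.72 ± 0.30 with scramble shRNA (SD, n = 3 each), with a log2 fold change of 0.65 ± 0.13 (SE, limma adjusted p = 0.0341) and a 95% interval from 0.36 to 0.94. The second probe set of AURKB, with a mean log2 signal of 6.93, gave 0.21 (limma adjusted p = 0.731 over 33370 probe sets). The call was lost when any 1 array other than scramble array 2 was left out. Without MYOSIN10 shRNA array 1, 2 or 3 the limma adjusted p was 0.093, 0.0859 and 0.146, and without scramble array 1 or 3 it was 0.17 and 0.165. Without scramble array 2 the log2 fold change was 0.82 (limma adjusted p = 0.00029), where 6.8% of all genes passed.

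AURKB works in the chromosomal passenger complex together with the survivin gene product BIRC5, the scaffold INCENP and the borealin gene product CDCA8. BIRC5 had log2 signals of 11.996, 12.30 and 12.05 with MYOSIN10 shRNA, against 11.66, 11.97 and 11.91 with scramble shRNA. Its groups did not overlap by a small margin, array 2 was highest in each, and the log2 fold change was 0.27 ± 0.11 (SE, limma adjusted p = 0.258). Its other 3 probe sets gave 0.31, 0.03 and 0.09, in order of signal. INCENP had 8.04, 8.40 and 8.20 with MYOSIN10 shRNA, against 8.10, 8.38 and 8.13 with scramble shRNA. These INCENP signals lay below the 8.90 reached among ESR1, EPCAM and ERBB3, which are low in this line, so the probe set may detect little transcript. The INCENP groups covered the same range, the difference being 0.01 with a 95% interval from -0.34 to 0.35. CDCA8 had 11.18, 11.36 and 11.15 with MYOSIN10 shRNA, against 11.10, 11.20 and 11.20 with scramble shRNA, again with overlap, and a difference of 0.06 with an interval from -0.13 to 0.25. BIRC5, INCENP and CDCA8 thus did not pass, and whether AURKB differed from them was not tested.

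The upstream sequences of these genes are shown because the complex's members are classic targets of the cell cycle transcription programme, whose promoters commonly carry a CHR element (searched as TTTGAA) and CCAAT boxes bound by NF-Y. The sequences cover the 250 bases before the annotated transcription start, from RefSeq on GRCh38.p14, 5′ to 3′ on the gene's strand, with every TTTGAA and CCAAT match on either strand in capitals (TTCAAA and ATTGG on the reverse strand). BIRC5 was not matched in the sequence table, and KIF15, the member with the next largest log2 fold change, is added for comparison.
AURKB, chr17:8210250-8210499, minus strand: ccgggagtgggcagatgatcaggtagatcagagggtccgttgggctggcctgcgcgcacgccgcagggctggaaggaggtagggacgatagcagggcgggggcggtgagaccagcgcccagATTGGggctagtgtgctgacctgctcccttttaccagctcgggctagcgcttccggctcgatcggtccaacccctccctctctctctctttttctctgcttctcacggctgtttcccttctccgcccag
INCENP, chr11:62123761-62124010, plus strand: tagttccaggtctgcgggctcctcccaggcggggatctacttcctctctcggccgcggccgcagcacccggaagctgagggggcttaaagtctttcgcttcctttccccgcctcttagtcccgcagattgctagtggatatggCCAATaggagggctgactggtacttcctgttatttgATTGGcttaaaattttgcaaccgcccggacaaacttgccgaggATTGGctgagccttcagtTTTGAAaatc
CDCA8, chr1:37692266-37692515, plus strand: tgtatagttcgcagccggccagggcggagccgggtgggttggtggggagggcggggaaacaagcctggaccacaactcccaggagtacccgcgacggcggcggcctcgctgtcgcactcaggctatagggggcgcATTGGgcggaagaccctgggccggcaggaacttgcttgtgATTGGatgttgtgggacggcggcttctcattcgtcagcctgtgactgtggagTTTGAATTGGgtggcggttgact
KIF15, chr3:44761544-44761793, plus strand: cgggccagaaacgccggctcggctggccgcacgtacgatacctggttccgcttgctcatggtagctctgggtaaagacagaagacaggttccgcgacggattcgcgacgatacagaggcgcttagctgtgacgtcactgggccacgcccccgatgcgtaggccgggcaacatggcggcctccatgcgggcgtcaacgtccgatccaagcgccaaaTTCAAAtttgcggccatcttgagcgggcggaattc
RefSeq lists 2 windows for AURKB, and the 1 shown belongs to the start farther upstream. The matches of the other AURKB window are not given singly. In these windows AURKB held 1 CCAAT and no TTTGAA match, INCENP and CDCA8 held 3 CCAAT and 1 TTTGAA match each, and KIF15 held 1 TTTGAA and no CCAAT match. In CDCA8 a TTTGAA and a CCAAT match shared 1 base. Of the 55 members, 47 were matched to 60 windows, some genes having several starts. TTTGAA was present in 27 of those 60 windows, 45%, against 13.3% of all 35116 windows, and CCAAT in 43, 71.7%, against 32% of all windows. A match is a run of letters and not a measured site.

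**Figure D2:**
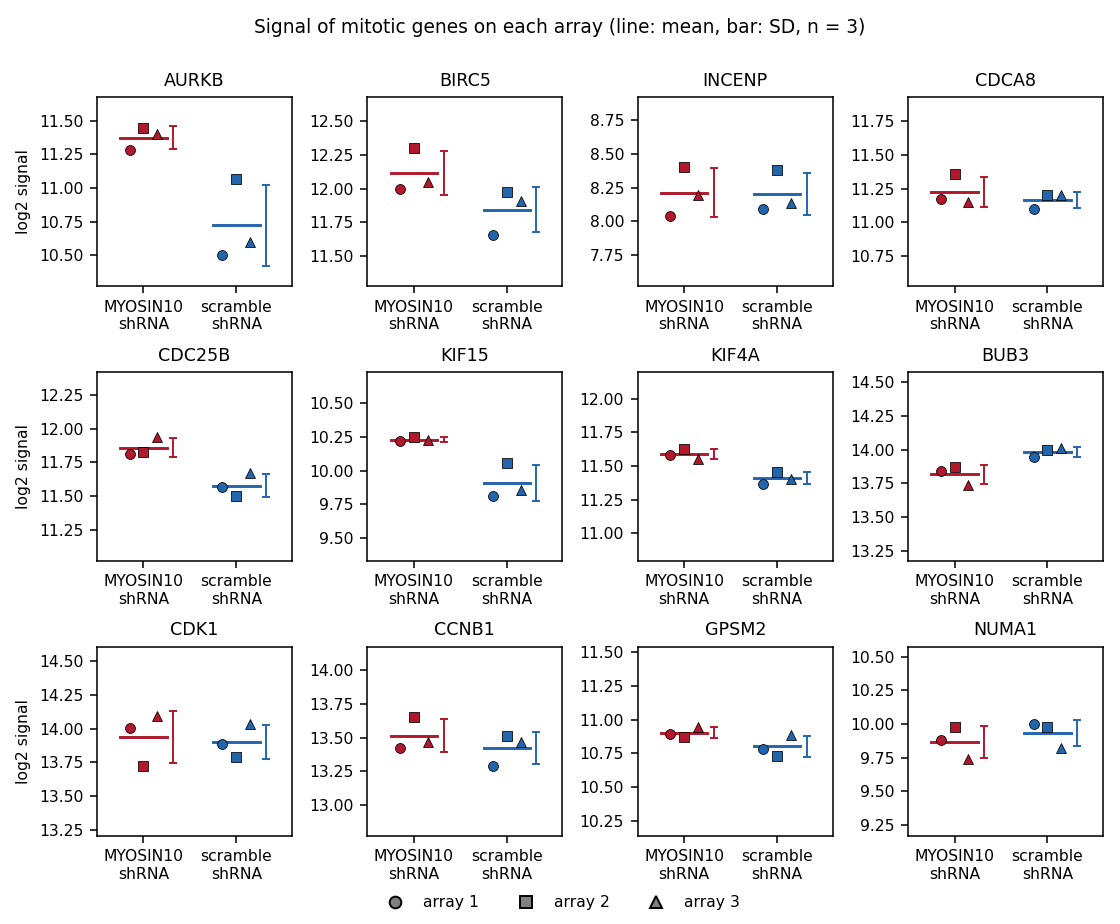
Log2 signal of 12 mitotic genes on each array, MYOSIN10 shRNA (red) left of scramble shRNA (blue), with the mean (line) and SD (bar, n = 3) and each panel spanning the same 1.4 log2 units. AURKB shows the widest gap between the groups, with scramble array 2 at 11.07 closest to the MYOSIN10 shRNA arrays, and INCENP, CDK1, CCNB1 and NUMA1 overlap.

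The remaining kinases did not pass. AURKA, which matures centrosomes and spindle poles and is the close relative of AURKB, had 13.13, 13.25 and 13.10 with MYOSIN10 shRNA, against 12.998, 13.14 and 13.21 with scramble shRNA. The AURKA groups overlapped and differed by 0.05, with a 95% interval from -0.12 to 0.21. PLK1, the Polo kinase of mitotic entry and spindle assembly, had 7.72, 8.04 and 7.87 with MYOSIN10 shRNA, against 7.75, 7.94 and 7.99 with scramble shRNA, also overlapping (difference -0.02, interval -0.38 to 0.34). All PLK1 signals lay below the 8.23 reached among markers of other cell types, so its probe set may detect little transcript. PLK4, the kinase that starts centriole duplication, stood at 0.17 and its next probe set at -0.24. NEK2, which separates centrosomes, stood at -0.01.

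Among the cyclins, CDK1 and its activators, 0 of 6 passed and the values ran from -0.07 for cyclin CCNA2 to 0.28 for CDC25B. CDK1 had 14.00, 13.72 and 14.09 with MYOSIN10 shRNA, against 13.88, 13.79 and 14.03 with scramble shRNA, with array 2 lowest in each group and a difference of 0.04 (interval -0.18 to 0.25). CCNB1, the cyclin that drives entry into mitosis, had 13.42, 13.66 and 13.47 with MYOSIN10 shRNA, against 13.29, 13.52 and 13.46 with scramble shRNA, overlapping, with a difference of 0.09. CDC25B, a phosphatase that activates CDK1, had 11.81, 11.83 and 11.94 with MYOSIN10 shRNA, against 11.56, 11.50 and 11.67 with scramble shRNA. Its groups did not overlap and its arrays spread little, but the log2 fold change of 0.28 ± 0.081 (SE) did not pass over all genes (limma adjusted p = 0.115). The related phosphatase CDC25C stood at 0.09. At mitotic exit, 0 of 4 passed, with the anaphase activator CDC20 at 0.06, the ubiquitin-conjugating enzyme UBE2C at 0.05, securin (PTTG1) at 0.07 and separase (ESPL1) at -0.02. PTTG1, the largest of these, had 14.02, 14.04 and 14.11 with MYOSIN10 shRNA, against 13.91, 13.92 and 14.13 with scramble shRNA, and the groups overlapped. PTTG1, CENPA and FOXM1 were read by probe sets of the _x_at kind, whose oligonucleotides can also match other transcripts.

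In the spindle checkpoint, 0 of 5 genes passed and 4 of 5 values were below 0. BUB3, which carries BUB1 and BUB1B to kinetochores, had 13.84, 13.87 and 13.74 with MYOSIN10 shRNA, against 13.94, 14.00 and 14.01 with scramble shRNA. All 3 MYOSIN10 shRNA values were below all 3 scramble values, with a log2 fold change of -0.17 ± 0.064 (SE, limma adjusted p = 0.255). Its other 5 probe sets gave -0.06, -0.07, 0.01, -0.14 and 0.07, in order of signal. The checkpoint kinases BUB1 and TTK stood at 0.04 and -0.09, BUB1B at -0.0044 and MAD2L1, the inhibitor of anaphase onset, at -0.02.

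Spindle positioning is the point where MYO10 and the list meet, and its 2 members did not pass. GPSM2, the cortical adaptor also called LGN, had 10.89, 10.87 and 10.95 with MYOSIN10 shRNA, against 10.79, 10.73 and 10.89 with scramble shRNA. Scramble array 3 reached the MYOSIN10 shRNA range, and the difference was 0.10 (95% interval -0.09 to 0.29, limma adjusted p = 0.646). Its other probe sets gave 0.04, -0.21 and 0.21. NUMA1, which joins GPSM2 to dynein at the cortex, had 9.88, 9.98 and 9.74 with MYOSIN10 shRNA, against 10.00, 9.98 and 9.82 with scramble shRNA, overlapping, with a difference of -0.07 (interval -0.30 to 0.17). The other 7 genes of spindle assembly did not pass either. TPX2, the activator of AURKA on spindle microtubules, stood at 0.08, the microtubule polymerase CKAP5 at 0.04, its partner TACC3 at -0.06, SPAG5 at 0.07, DLGAP5 at 0.03, NUSAP1 at 0.14 and HMMR at -0.15. The MYOSIN10 shRNA arrays of HMMR were spread widely, at 9.99, 10.30 and 10.55, against 10.52, 10.44 and 10.33 with scramble shRNA.

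Of the 10 kinesins, 0 passed, and 8 values were above 0. KIF15, a plus-end-directed motor that can help keep spindle poles apart, had 10.22, 10.25 and 10.23 with MYOSIN10 shRNA, against 9.81, 10.06 and 9.85 with scramble shRNA. The MYOSIN10 shRNA arrays were almost level and all above the scramble arrays, of which array 2 was the highest, and the log2 fold change was 0.32 ± 0.10 (SE, limma adjusted p = 0.15). Without scramble array 2 it was 0.40 and passed (limma adjusted p = 0.0294), where 6.8% of all genes passed. KIF15 also passed without both arrays numbered 2, where 8.64% of all genes did. KIF4A, which limits the length of the central spindle, had 11.58, 11.63 and 11.55 with MYOSIN10 shRNA, against 11.37, 11.46 and 11.41 with scramble shRNA, without overlap (difference 0.18, limma adjusted p = 0.305). KIF11, the main motor of spindle bipolarity, stood at 0.01. KIF14 and KIF20B, motors of cytokinesis, stood at -0.20 and -0.12. KIF2C, KIF18A, KIF20A, KIF22 and KIF23 lay between 0.03 and 0.23.

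**Figure D3:**
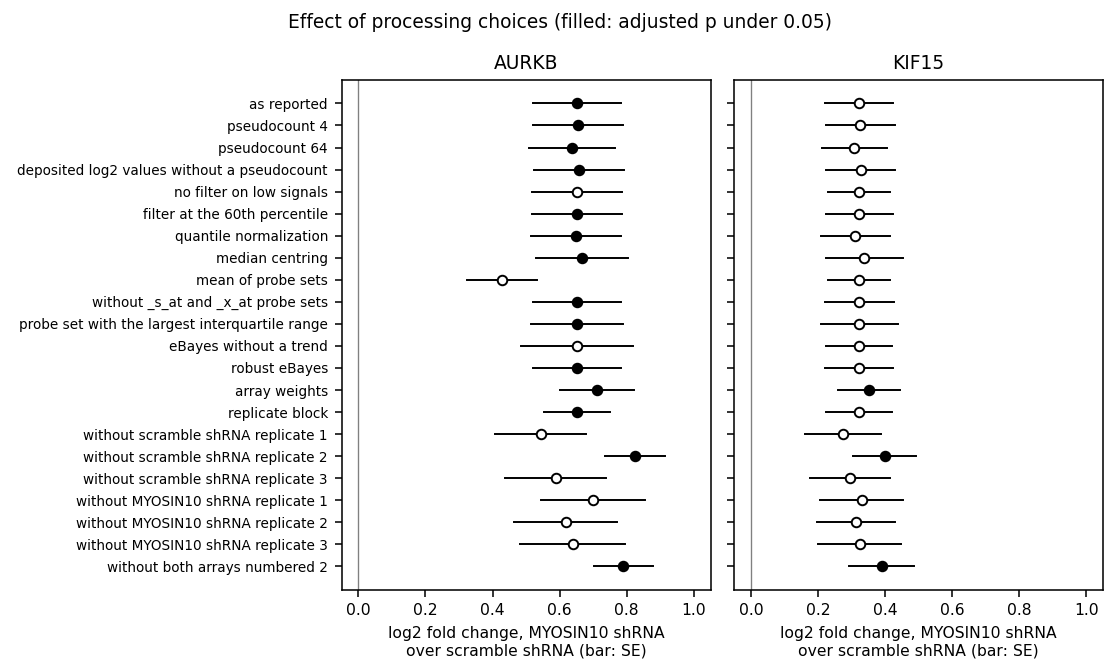
Log2 fold change of AURKB and KIF15, MYOSIN10 shRNA over scramble shRNA, as reported and under each alternative (points, filled where the adjusted p was under 0.05; bars are SE). All values of both genes are above 0, and leaving out scramble array 2 gave the highest, 0.82 for AURKB and 0.40 for KIF15.

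The cytokinesis genes PRC1, ANLN, ECT2 and RACGAP1 had 4 positive values and 0 calls. PRC1, which bundles the central spindle, had 12.77, 12.85 and 12.77 with MYOSIN10 shRNA, against 12.45, 12.72 and 12.74 with scramble shRNA. These groups did not overlap, yet arrays 2 and 3 of the scramble group lay close below (difference 0.16, limma adjusted p = 0.432). At the kinetochore, 0 of 6 passed. SPC25, a subunit of the NDC80 complex that grips microtubules, had 10.81, 11.23 and 11.15 with MYOSIN10 shRNA, against 10.71, 11.02 and 10.60 with scramble shRNA, overlapping, with a difference of 0.29 (limma adjusted p = 0.338). Its partners NDC80 and NUF2 stood at -0.05 and -0.02. CENPE and CENPF stood at -0.10 and 0.03. The other CENPF probe sets gave -0.31 and, at a mean log2 signal of 6.79, -0.51 (limma adjusted p = 0.272 and 0.444 over all probe sets).

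The general markers of proliferation, 3 genes, did not pass. MKI67, the Ki-67 antigen, had 11.06, 11.20 and 10.84 with MYOSIN10 shRNA, against 10.91, 11.13 and 10.99 with scramble shRNA, and the groups overlapped with a difference of 0.02 (95% interval -0.21 to 0.25). FOXM1, the transcription factor that activates many genes of this list, had 10.21, 10.37 and 10.25 with MYOSIN10 shRNA, against 10.27, 10.37 and 10.38 with scramble shRNA, overlapping (difference -0.06, interval -0.27 to 0.14). TOP2A, the topoisomerase that untangles chromosomes, had 12.96, 13.07 and 13.10 with MYOSIN10 shRNA, against 12.84, 13.03 and 12.94 with scramble shRNA. Scramble array 2 lay within the MYOSIN10 shRNA range, and the difference was 0.11. Of the 55 members, 29 had another probe set above the filter. In 21 of these the second brightest shared the sign of the brightest and in 8 it did not, and 0 of the 51 other probe sets passed (limma over all probe sets, of which 1.06% passed). At an unadjusted p under 0.05 stood 2 of the 51, against 13.2% of all probe sets.

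Other genes of the same processes were counted beside the 1.62% of all genes that passed. Of 82 measured further genes of G2 and mitosis, 1 rose, 0 fell and 81 did not pass, with a median log2 fold change of 0.03. The gene that rose was TROAP, a spindle-associated protein, which had 9.84, 9.85 and 10.05 with MYOSIN10 shRNA, against 9.45, 9.36 and 9.19 with scramble shRNA (log2 fold change 0.58, limma adjusted p = 0.0299). Its second probe set gave -0.06. Of 52 measured genes of S phase, 1 rose, 0 fell and 51 did not pass, with a median of 0.04. That was E2F2, a transcription factor of the E2F family, which had 9.29, 9.02 and 9.16 with MYOSIN10 shRNA, against 8.69, 8.42 and 8.51 with scramble shRNA (log2 fold change 0.62, limma adjusted p = 0.0434), whose second probe set gave -0.34. The calls of TROAP and E2F2 were lost when any 1 array except scramble array 2 was left out (limma adjusted p between 0.0519 and 0.213).

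Among 35 measured genes of spindle positioning, which include MYO10, GPSM2 and NUMA1, 1 rose, 1 fell and 33 did not pass, beside 1.16% of all genes higher and 0.459% lower. The one that fell was MYO10 itself. The one that rose was PAK2, a p21-activated kinase that acts on the actin cytoskeleton, with 12.39, 12.38 and 12.46 with MYOSIN10 shRNA, against 11.40, 11.82 and 11.43 with scramble shRNA. The PAK2 groups lay well apart (log2 fold change 0.86 ± 0.11 SE, limma adjusted p = 0.00277), and its other 4 probe sets gave 0.56 to 1.03. PAK2 passed in 20 of 21 alternatives, the exception being the fit without the variance trend (limma adjusted p = 0.12). KIFC1, a minus-end-directed kinesin that gathers extra centrosomes, had 10.59, 10.88 and 10.82 with MYOSIN10 shRNA, against 10.34, 10.70 and 10.55 with scramble shRNA, overlapping (difference 0.23, limma adjusted p = 0.385). WEE1, the kinase that holds CDK1 inactive, had 11.41, 11.42 and 11.28 with MYOSIN10 shRNA, against 11.61, 11.36 and 11.73 with scramble shRNA, also overlapping (difference -0.20, limma adjusted p = 0.401). Without both arrays numbered 2, WEE1 stood at -0.33 and passed (limma adjusted p = 0.0368), where 8.64% of all genes passed. It passed in 1 of 21 alternatives.

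The second question was whether the arrays numbered 2 differed from those numbered 1 and 3 in both groups. Taken over both groups, with group as a term in limma, 0 of the 55 members passed, where 2.43% of all genes did, 0.656% higher and 1.77% lower on the arrays numbered 2. At an unadjusted p under 0.05 stood 12 members, 21.8% against 17.3% of all genes, of which 10 were higher (all genes 6.73%) and 2 lower (all genes 10.5%). The 2 lower ones were CDK1 and TACC3. The count of 12 was 6 with median centring, without the variance trend or without scramble array 2, and 7 with the most variable probe set of each gene. Within single groups, 0 members passed with MYOSIN10 shRNA, where 0.261% of all genes did, and 1 (AURKB) passed with scramble shRNA, where 2.32% did. The members' median difference was 0.10 against -0.01 over all genes, and 41 of 55 were above 0, where 47.5% of all genes were. Array 2 was above both other arrays of its own group in both groups for 20 members, 36.4% against 15.3% of all genes, and below both in both groups for 5, 9.09% against 19.8% of all genes. This contrast was chosen with earlier results of these arrays known.

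BUB1 and ECT2 came nearest to a call, and both were chosen after their values were seen. BUB1, the checkpoint kinase, had 12.53 on MYOSIN10 shRNA array 2 against 12.16 and 12.22 on arrays 1 and 3, and 12.41 on scramble array 2 against 12.18 and 12.19 (difference 0.28, limma adjusted p = 0.0506). ECT2, the exchange factor that activates RhoA for the contractile ring, had 12.64 on MYOSIN10 shRNA array 2 against 12.37 and 12.40, and 12.58 on scramble array 2 against 12.36 and 12.21 (difference 0.28, limma adjusted p = 0.0567). On these probe sets both genes were highest on array 2 in each group, by similar amounts. The other tested probe sets gave 0.33, 0.17 and 0.46 for BUB1, in order of signal. Those of ECT2 gave 0.34 and, at a mean log2 signal of 5.38, -0.58. CDK1 differed by -0.25 on its brightest probe set (limma adjusted p = 0.0804), opposite in sign to the brightest probe sets of BUB1 and ECT2. Its other 3 probe sets gave -0.06, 0.02 and 0.32. A dimmer probe set of ESPL1 passed among all probe sets (difference 0.58, limma adjusted p = 0.0182), as did 1.08% of all probe sets, while the brightest stood at -0.08.

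**Figure D4:**
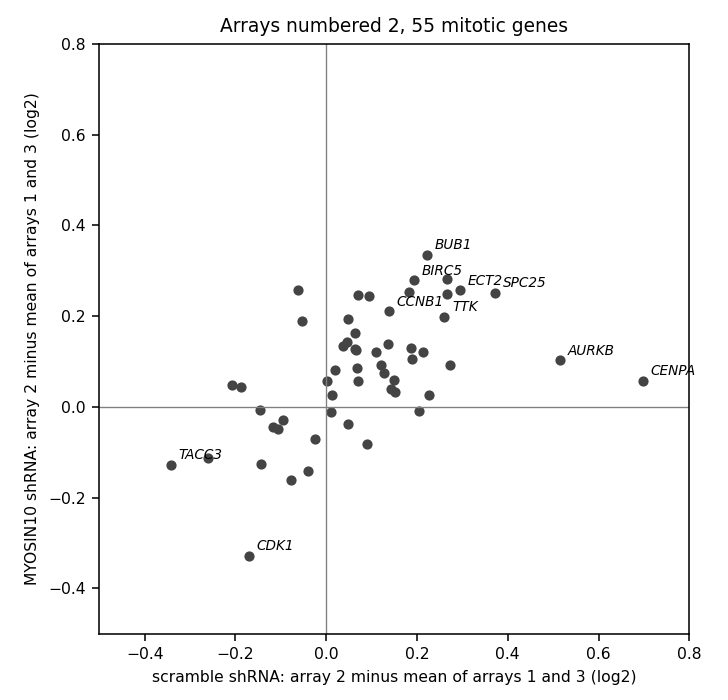
For each of the 55 genes, array 2 minus the mean of arrays 1 and 3 within MYOSIN10 shRNA (vertical axis) and within scramble shRNA (horizontal axis), both in log2. Most points lie in the upper right, and CDK1 and TACC3 are among several points in the lower left. AURKB and CENPA stand out to the right at 0.52 and 0.70 within the scramble group.

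AURKB on array 2 exceeded the mean of arrays 1 and 3 by 0.10 with MYOSIN10 shRNA and by 0.52 with scramble shRNA. CENPA gave 0.06 with MYOSIN10 shRNA and 0.70 with scramble shRNA. A limma test of the difference between the groups passed for 0 of the 55 members, against 0.0212% of all genes, and 2 members, these same 2, stood at an unadjusted p under 0.05 (all genes 8.62%). MYO10 itself was 0.72 higher on array 2 with MYOSIN10 shRNA and 0.25 higher with scramble shRNA (combined difference 0.48, limma adjusted p = 0.0388, passing in 7 of 19 alternatives). MYO10 and the members' median were both highest on array 2 in each group. They differed elsewhere, since with MYOSIN10 shRNA MYO10 was lowest on array 3 and the members' median was lowest on array 1. Whether MYO10 and the members were linked was not tested.

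The arrays numbered 1 also stood to one side. Relative to each gene's mean over 6 arrays, the median of the 55 members was -0.04 on array 1, 0.09 on array 2 and 0.05 on array 3 with MYOSIN10 shRNA, against -0.10, 0.02 and -0.02 with scramble shRNA. The medians over all genes stayed between -0.02 and 0.02. Array 1 was the lowest of its group for 37 of 55 members with MYOSIN10 shRNA, where 30.1% of all genes were lowest there, and for 30 of 55 with scramble shRNA, where 29.1% of all genes were. Array 2 was the highest of its group for 34 members with MYOSIN10 shRNA (35.1% of all genes) and for 26 with scramble shRNA (33.5% of all genes). Scramble array 3 was highest for 24 members, nearly as many, and scramble array 2 was lowest for 14. By the median, the members sat lowest on array 1 and highest on array 2 in each group, with scramble arrays 2 and 3 little apart by count. Without both arrays numbered 2, the members' median log2 fold change between the groups stayed at 0.05, and 2 members passed, AURKB at 0.79 and KIF15 at 0.39 (limma adjusted p = 0.00028 and 0.0294), where 8.64% of all genes passed.

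**Figure D5:**
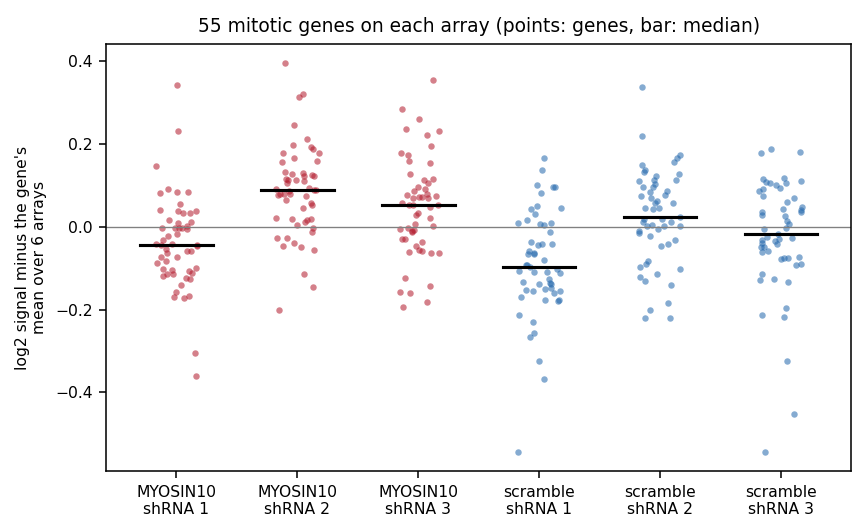
Log2 signal of each of the 55 genes on each array minus that gene's mean over the 6 arrays (points), with the median per array (bar), MYOSIN10 shRNA left of scramble shRNA. The medians run from -0.10 on scramble array 1 to 0.09 on MYOSIN10 shRNA array 2, and array 1 is lowest in each group.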

How the data were processed

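Total RNA of 6 MDA-MB-231 samples was measured on 1 array each. The deposited values are log2 signals, made with MAS5, a method that summarises each array on its own, per the submitters' processing notes. The MAS5 version and settings were not stated there. The linear signals had the same trimmed mean on every array (500.07 to 500.08, with 2% cut at each end), so these values cannot show a change in the total RNA of a cell. The labels do not say whether samples of a group were separate cultures, so p-values reflect only how far these samples scatter, possibly for technical reasons, and 3 arrays per group limit the precision.

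From these, log2(signal + 16) was computed, probe sets at or above their array's 40th percentile on at least 3 arrays were kept (33370 of 54675), and each gene was represented by its brightest single-symbol probe set. Symbols came from the platform annotation, updated through RefSeq for 41043 of 41097 probe sets. Limma 3.58.1 in R 4.3.3 (lmFit, eBayes with a variance trend, two-sided, Benjamini-Hochberg over 14174 genes) compared the groups, and, with group as a term, arrays numbered 2 with the others. A further fit, added beyond the planned tests, gave number 2 differences within each group. The steps were tested on simulated data.

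Genes named with values on every array were members called or with an unadjusted p under 0.05, the largest change per role, and a fixed set (CDK1, CCNB1, AURKA, AURKB, PLK1, FOXM1, MKI67, NUMA1, GPSM2); from other lists, called genes, MYO10, KIFC1 and WEE1. INCENP, CDCA8, BUB1 and ECT2, also given on every array, and other members named by values were chosen after these were seen. The members and lists were chosen with earlier results of these data known. Alternatives concerned the pseudocount, filter, scaling, probe set choice, variance model, weights for arrays, a block for replicate number, and arrays left out. Figures used Python 3.11.15 and matplotlib 3.10.9.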

Additional observations from a re-analysis of the deposited data

How the results depend on the processing

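Of the 55 mitotic genes, 1 passed between MYOSIN10 shRNA and scramble shRNA as reported. The number was 0 with no filter on low signals, with probe sets averaged per gene and without the variance trend, where AURKB kept its direction (limma adjusted p = 0.0775, 0.0982 and 0.235). It was 2 with array weights (KIF15 joined), with the replicate number as a block (CDC25B joined, adjusted p = 0.0495) and without both arrays numbered 2 (KIF15 joined), and 0 to 2 with each array left out. Deviations of same-numbered arrays from their group means correlated over genes at 0.059, 0.163 and 0.040 for numbers 1, 2 and 3. Differently numbered arrays gave -0.111 to 0.066, so the arrays numbered 2 had the highest value. Whether equal numbers mark paired samples is not stated in the labels. AURKB stayed called in 13 of 21 alternatives, its log2 fold change running from 0.43 to 0.82. For arrays numbered 2, where 0 passed as reported, the number was 1 with a pseudocount of 64 or robust eBayes (BUB1), with the most variable probe set (ESPL1) and within scramble shRNA (AURKB), 2 with the 60th percentile filter (BUB1, ECT2) or quantile normalization (CDK1, BUB1), and 0 to 1 with each array left out. The members' median difference on those arrays was above 0 in every alternative, while median centring changed the split of all called genes to 32 higher and 286 lower, against 93 and 251. Over all genes the calls between the groups numbered 229 as reported, 7 without the trend, 66 to 964 with each array left out, 791 with array weights, 611 with the block, 1224 without both arrays numbered 2, 126 with no filter and 111 with probe sets averaged; for arrays numbered 2 they were 344 as reported, 0 without the trend, 41 (without scramble array 2) to 351 with each array left out, 76 with no filter, 96 with probe sets averaged, 162 with array weights, 188 with the most variable probe set, 216 without _s_at and _x_at probe sets and 428 with the 60th percentile filter.

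Some values turned sign. With the most variable probe set BUB3 gave 0.065, TOP2A -0.37, CCNB1 -0.051, NUMA1 0.37, GPSM2 -0.21 and E2F2 -0.34, and on arrays numbered 2 ECT2 gave -0.58 and CDK1 0.32. With the mean of probe sets TOP2A gave -0.047 and CDK1 on arrays numbered 2 gave 0.0096. Without _s_at and _x_at probe sets, which left 41 members, CCNB1 gave -0.051, AURKA -0.020, NUMA1 0.37 and ECT2 on arrays numbered 2 gave -0.58. The probe sets that stood in had mean log2 signals of 7.15 for BUB3, 7.14 for AURKA and 6.33 for TOP2A. Those of NUMA1 and ECT2 had 5.86 and 5.38. All were below the 8.23 reached among markers of other cell types, so these probe sets may detect little transcript. The stand-ins for CCNB1 and GPSM2 were brighter, at 11.92 and 9.35. That of CDK1 rose above 8.23 on MYOSIN10 shRNA array 2, and that of E2F2 was not compared. With arrays left out in turn CDK1 ran from -0.040 to 0.15, AURKA from -0.013 to 0.092, PLK1 from -0.10 to 0.062 and MKI67 from -0.064 to 0.12. Without both arrays numbered 2 MKI67 gave -0.0028. Of the values listed as turned, 0 passed. The cause of these differences was not tested.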
